A study of Mus musculus with 8 samples.

Results

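Border macrophages are the resident macrophages of the meninges and the perivascular spaces, and 7 transcripts used as their markers were followed here in RNA from sorted microglia. These are Mrc1, Cd163, Lyve1, Pf4, Cbr2, F13a1 and Stab1, chosen by name from the 56832 rows of the deposited table, and all 7 were present and passed the minimum mean of 10 normalized counts that left 14428 genes for testing. The microglia came by fluorescence-activated sorting from brains of male, young adult 5xFAD mice, and both groups carry these transgenes, which encode mutant human amyloid precursor and presenilin proteins under a neuronal promoter. The ethanol group (4 libraries) was injected intraperitoneally with ethanol at 3 g/kg in a 20% solution, and the saline group (4 libraries) with saline, on 5 days of the week through 4 weeks, with 2 weeks of withdrawal afterwards. The labels do not name the antibodies or gate of the sort, and they do not say that each library came from its own mouse, so p-values here reflect variation among libraries that may partly be technical. Libraries are called by group and by the sample number in their titles (ethanol 1 to 4, saline 1 to 4).

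Border macrophages share their origin and many genes with microglia but take up proteins and debris from blood and cerebrospinal fluid, and their markers are largely endocytic receptors. They are commonly divided into a subset rich in Lyve1 and Cd163 and a subset rich in MHC class II. Several of the markers are also made elsewhere, since Pf4 is a platelet chemokine, F13a1 is made by platelets and monocytes, and Lyve1 and Stab1 by lymphatic or sinusoidal endothelium. In bulk RNA, fewer cells of a type and less RNA per cell cannot be told apart.

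Depth was similar throughout, with 14271351 to 17231301 reads assigned to genes per library. Microglial genes dominated both groups, and 9 homeostatic markers such as P2ry12 and Tmem119 summed to 3.51 to 3.75% of the normalized counts in ethanol libraries and 3.35 to 3.50% in saline libraries. The 7 border macrophage transcripts summed to 0.0612 ± 0.00679% in ethanol libraries and 0.0628 ± 0.0106% in saline libraries (SD, n = 4 each). Stab1 alone made up 80.7 to 94.4% of that sum, depending on the library, so the sum says little about the other 6. One library stood apart on these transcripts, as saline 2 was the highest of the 8 for 6 of the 7 genes and the second highest for Stab1. Across all genes tested, 10.8% were highest in saline 2.

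The endocytic receptors Mrc1 and Cd163 had uneven levels within each group. Mrc1, the mannose receptor also known as CD206, had 318, 434, 273 and 462 normalized counts in ethanol 1 to 4, against 518, 762, 265 and 232 in saline 1 to 4. The groups overlapped, with saline 1 and 2 above every ethanol library and saline 3 and 4 below every one of them. Cd163, the scavenger receptor for haemoglobin bound to haptoglobin, had 77.1, 145, 25.1 and 73.1 normalized counts in ethanol 1 to 4, against 174, 297, 42.8 and 18.2 in saline 1 to 4. Its saline libraries enclosed the whole ethanol range, and the highest was 16.4 times the lowest. That spread exceeded counting error, which covers neither amplification nor sampling of cells, since saline 2 held 308 reads of Cd163 (exact 95% Poisson interval 275 to 344) and saline 4 held 20 (12.2 to 30.9).

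Lyve1, a hyaluronan receptor that also marks lymphatic endothelium, was the member with libraries at 0. It had 30.4, 78.2, 57.2 and 19.6 normalized counts in ethanol 1 to 4, against 50.9, 118, 0 and 0 in saline 1 to 4. Among 15684707 reads in saline 3 and 17231301 in saline 4, no read was assigned to Lyve1, and a count of 0 allows up to 3 reads, or 3.06 and 2.73 normalized counts. Every ethanol library therefore lay above these 2 saline libraries and below saline 2. The group means were 46.3 ± 26.5 in ethanol libraries and 42.1 ± 55.8 in saline libraries (SD, n = 4 each).

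Pf4, Cbr2 and F13a1 encode a secreted chemokine and 2 enzymes. Pf4, or CXCL4, had 64.1, 59.1, 60.2 and 53.5 normalized counts in ethanol 1 to 4, against 90.6, 243, 40.8 and 53.6 in saline 1 to 4. The ethanol libraries were close to each other, and they lay inside the saline range. F13a1, the catalytic subunit of coagulation factor XIII, a transglutaminase that crosslinks fibrin, had 197, 378, 321 and 142 normalized counts in ethanol 1 to 4, against 412, 750, 212 and 146 in saline 1 to 4. Saline 1 and 2 were again above every ethanol library. Cbr2, a carbonyl reductase, had 54.3, 82.2, 42.1 and 22.6 normalized counts in ethanol 1 to 4, against 52.7, 134, 6.12 and 45.4 in saline 1 to 4. The lowest of these, saline 3, held 6 reads of Cbr2 (exact 95% Poisson interval 2.20 to 13.1).

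Stab1, or stabilin-1, a scavenger receptor that binds modified lipoprotein and matrix fragments, was at another level. It had 8792, 9861, 8240 and 7970 normalized counts in ethanol 1 to 4, against 8713, 9645, 7912 and 8340 in saline 1 to 4. The libraries of both groups lay close together. Divided by exon length, taken from a GENCODE annotation of GRCm38, Stab1 averaged 844 normalized counts per kilobase over the 8 libraries, Pf4 115, Mrc1 64.0, F13a1 47.4, Cbr2 41.4, Cd163 19.5 and Lyve1 15.2. Stab1 stayed above the others in every library on this scale, at 769 to 958 per kilobase, whereas the ranges of the other 6 overlapped in a chain, from 0 to 40.3 for Lyve1 to 56.6 to 337 for Pf4. In level Stab1 thus did not behave like the other 6 markers, and which cells made it was not tested. The libraries do not mark strand, and 269 normalized counts at most were assigned to Nt5dc2, whose exons overlap those of Stab1 on the opposite strand.

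**Figure D1:**
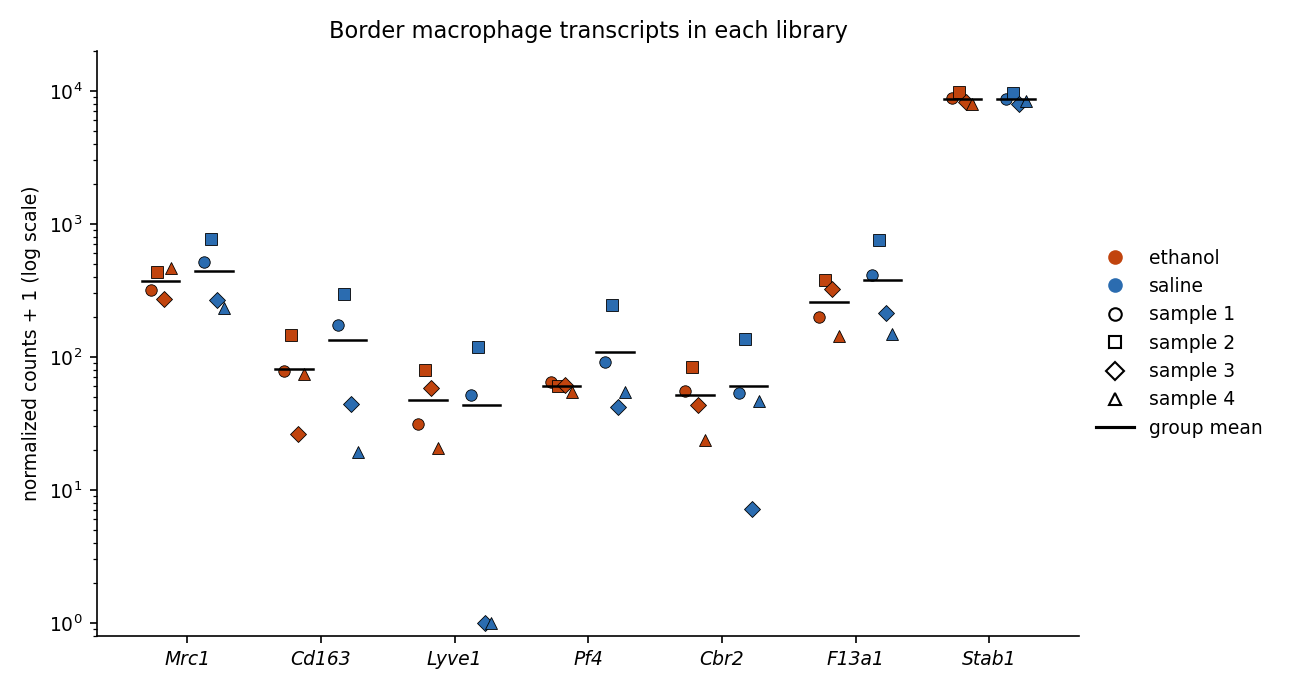
Normalized counts plus 1 on a log axis for each of the 7 transcripts, with 1 point per library, orange for ethanol (left) and blue for saline (right), symbols for the sample number and a bar at the group mean (n = 4 each). Saline 2 is the highest point for 6 of the 7 genes, Lyve1 is at 0 in saline 3 and saline 4, and the points of Stab1 lie between 7912 and 9861.

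The comparison of ethanol with saline asks whether 4 weeks of exposure left a trace in these transcripts after withdrawal, and 0 of the 7 passed. In limma on log2 of the value plus 1, the Benjamini-Hochberg adjusted p over the 14428 genes was 0.997 for each of the 7, and 0% of all genes tested passed. At an unadjusted p under 0.05 there were 0 of the 7, against 3.63% of all genes tested. The edgeR and DESeq2 tests on recovered reads also called 0 of the 7, adjusted or unadjusted. The groups overlapped for all 7, while they did not overlap for 2.32% of genes tested. Fold changes were negative for 4 of the 7, against 51.2% of all genes tested, and the median log2 fold change was -0.12 for the 7 and -0.01 for all genes tested.

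The intervals around these folds were wide for all but Stab1. Stab1 averaged 8716 ± 837 normalized counts in ethanol libraries and 8653 ± 738 in saline libraries (SD, n = 4 each). Its fold was 1.01, and the 95% interval ran from 0.898 to 1.13. Mrc1 averaged 372 ± 90.7 in ethanol libraries and 444 ± 248 in saline libraries, a fold of 0.921 (0.596 to 1.42). On the log2 scale Mrc1 changed sign, at -0.12 over all libraries and 0.20 without saline 2. F13a1 averaged 259 ± 109 in ethanol libraries and 380 ± 271 in saline libraries, a fold of 0.771 (0.430 to 1.38), and its direction turned without saline 2 (log2 fold change 0.04). Pf4 averaged 59.2 ± 4.37 in ethanol libraries and 107 ± 93.2 in saline libraries, a fold of 0.711 (0.380 to 1.33), and without saline 2 the log2 fold change was 0.02 and the saline mean 61.7. These folds compare values plus 1, and for Mrc1, F13a1 and Pf4 the saline SD was larger than the difference between the group means.

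The intervals included folds past 2 in both directions for Cd163 and Cbr2, a 2-fold higher level for Lyve1, and 2-fold lower levels for Pf4 and F13a1. Cd163 averaged 80.2 ± 49.5 normalized counts in ethanol libraries and 133 ± 129 in saline libraries (SD, n = 4 each), and its fold of 0.843 had a 95% interval from 0.310 to 2.29. Without saline 2 the Cd163 saline mean was 78.3, the log2 fold change was 0.38, and it was -0.25 over all 8 libraries. Cbr2 averaged 50.3 ± 24.9 in ethanol libraries and 59.6 ± 53.7 in saline libraries, with a limma fold of 1.18 (0.443 to 3.16). The count tests gave other sizes for several members, with edgeR log2 fold changes of -0.25 for Mrc1, -0.72 for Cd163 and -0.85 for Pf4. For Cbr2 the direction was opposite, with a log2 fold change of 0.24 in limma and of -0.24 in edgeR and in DESeq2. Lyve1 had a limma log2 fold change of 2.23 (standard error 1.24, unadjusted p = 0.0899, adjusted p = 0.997), a value that depends on the 1 added before the log, since 2 saline libraries were at 0. With edgeR the Lyve1 log2 fold change was 0.14 (adjusted p = 0.999), and without saline 2 the limma value was 3.48.

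**Figure D2:**
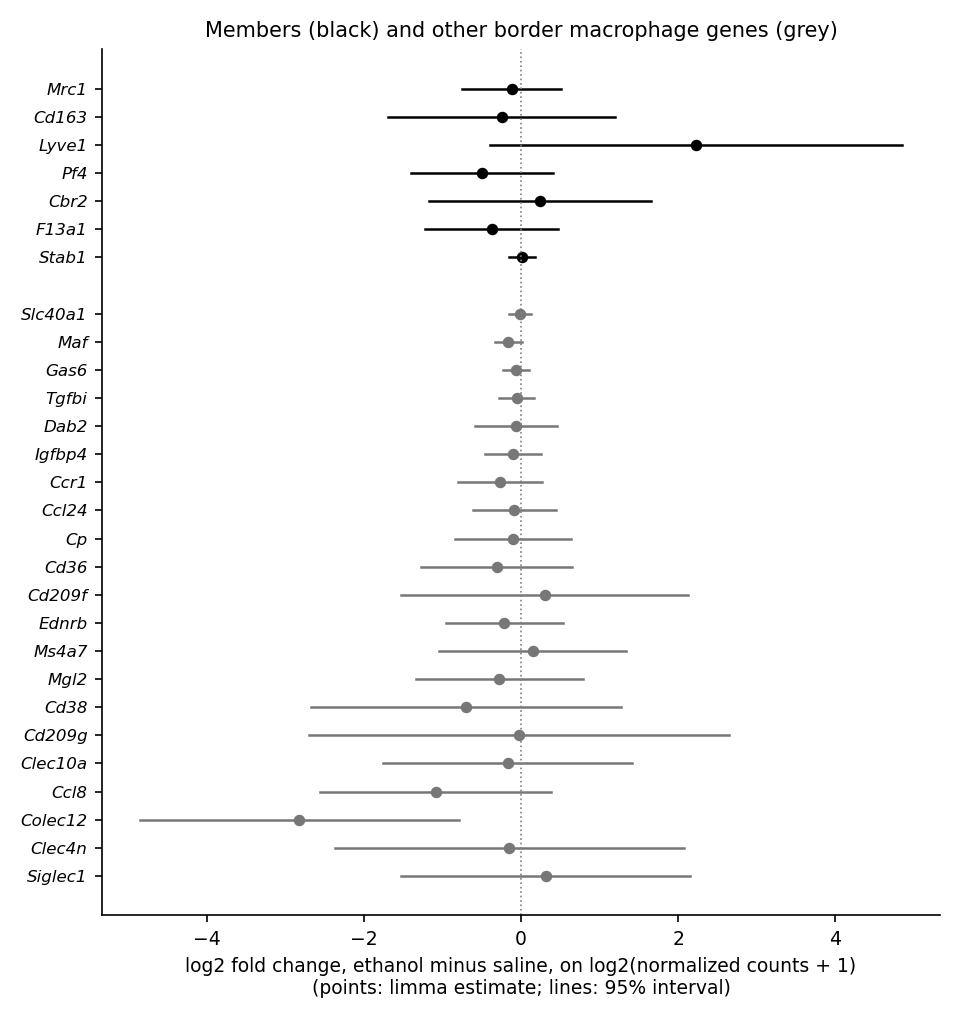
Limma log2 fold changes (points, ethanol minus saline, on log2 of normalized counts plus 1) with 95% intervals (lines) for the 7 transcripts in black and for the 21 tested genes of a list of other border macrophage genes in grey, with the other genes ordered by level. All 7 black intervals cross 0, and Stab1 has the narrowest of them.

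The direction of the difference changed with the sample numbers. Earlier results of these data had shown that samples 1 and 2 of both groups differ from samples 3 and 4, and no label names a batch that would set them apart. Within samples 1 and 2 the fold change was negative for 6 of the 7 genes, and within samples 3 and 4 it was positive for 6 of the 7. Mrc1 averaged 376 normalized counts in ethanol 1 and 2 against 640 in saline 1 and 2, and 367 in ethanol 3 and 4 against 248 in saline 3 and 4. For Mrc1 the log2 fold change in samples 1 and 2 was -0.76, and in samples 3 and 4 it was 0.52. For Cd163 it was -1.09 and 0.60 in the same order of sets, for Pf4 -1.26 and 0.27, and for F13a1 -1.03 and 0.28. Cbr2 had -0.33 and 0.81, and Stab1 0.02 and -0.0034. Lyve1 had -0.65 within samples 1 and 2. In samples 3 and 4 its ethanol mean was 13.3 times a limit of 3 reads per library, set for the saline libraries at 0. That ratio leaves out counting error and the spread between ethanol 3 (57.2 normalized counts) and ethanol 4 (19.6). Within samples 1 and 2, Mrc1, Cd163, Pf4 and F13a1 had an unadjusted limma p under 0.05, as did 5.27% of all genes tested, and within samples 3 and 4 Lyve1 had one, as did 3.47%. After limma's adjustment 0 of the 7 passed in either set, and 0% of all genes tested (adjusted p of the 7 at 0.909 or above). The split was taken from these same data and the members varied together. The unadjusted p-values and the counts of directions are therefore no independent support for a difference. The difference between the sets was not tested.

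All 7 genes averaged more normalized counts in samples 1 and 2 than in samples 3 and 4. The ratio of these means was 4.36 for Cd163, 3.61 for Lyve1, 2.78 for Cbr2, 2.20 for Pf4, 2.11 for F13a1, 1.65 for Mrc1 and 1.14 for Stab1. The direction was the same in each group, but for the 6 genes other than Stab1 the difference was larger in saline libraries. Mrc1 averaged 376 in samples 1 and 2 against 367 in samples 3 and 4 of ethanol, and 640 against 248 of saline. In the same order Pf4 averaged 61.6 against 56.8 and 167 against 47.2, and Cd163 111 against 49.1 and 236 against 30.5. The 6 genes other than Stab1 summed to 741, 1177, 778 and 773 normalized counts in ethanol 1 to 4, against 1298, 2304, 567 and 495 in saline 1 to 4. In these sums ethanol 1 was below ethanol 3 and ethanol 4. The highest sum was 4.65 times the lowest, while with Stab1 included it was 1.41 times the lowest. Each of the 6 genes also had a larger SD than 93.8 to 99.7% of tested genes within 1.5-fold of its mean. The SD over the 8 libraries on the log2 scale was 1.37 for Cd163, and the median over the 1426 tested genes within 1.5-fold of its mean was 0.38. For Mrc1 these values were 0.58 and 0.21, and for Stab1 they were 0.12 and 0.09.

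The members varied together from library to library. Over the 8 libraries, all 21 pairs had a positive Pearson correlation of log2 values, from 0.52 to 0.93 with a median of 0.71, and Spearman's rho ran from 0.48 to 0.98 with a median of 0.69. Over all 104076378 pairs of genes tested the median r was -0.0025. An r above 0.7 was found for 12 of the 21 pairs, or 57.1%, and for 3.19% of all pairs of genes tested. Of single pairs, 10 of the 21 pairs had an unadjusted p under 0.05 in a two-sided exact permutation test.

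Mrc1 and Cd163 were the 1 pair whose Pearson correlation passed the adjustment over the 21 pairs. Their r was 0.93 (exact permutation p = 0.000719, adjusted p = 0.0151) and their rho 0.90 (exact permutation p = 0.00456, adjusted p = 0.0479). Without saline 2 and saline 4, the libraries farthest from the median of Mrc1, their r was 0.86, and without saline 2 alone it was 0.90 (exact permutation p = 0.00853, adjusted p = 0.179). Cbr2 and Stab1 had an r of 0.83 (exact permutation p = 0.00699, adjusted p = 0.0592) and a rho of 0.98 (exact permutation p = 0.000397, adjusted p = 0.00833), and without saline 2 and saline 3 their r was 0.91. Pf4 and F13a1 had an r of 0.81 (exact permutation p = 0.0113, adjusted p = 0.0592), which fell to 0.28 without saline 1 and saline 2, so that this relation rests on those libraries. Mrc1 and Pf4 had an r of 0.81 (exact permutation p = 0.0101, adjusted p = 0.0592) and of 0.61 without saline 2 and saline 4.

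Part of the shared variation went with saline 2 and with the sample numbers. Without saline 2 all 21 correlations stayed positive, from 0.31 to 0.90 with a median of 0.59, and 0 passed the adjustment in the exact permutation test. Measured as deviations from the means of samples 1 and 2 and of samples 3 and 4, 20 of the 21 were positive and the median was 0.44, with a range from -0.13 to 0.93. As deviations from the ethanol and saline means the median was 0.75. Each set of 4 libraries is too small for a correlation of its own.

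**Figure D3:**
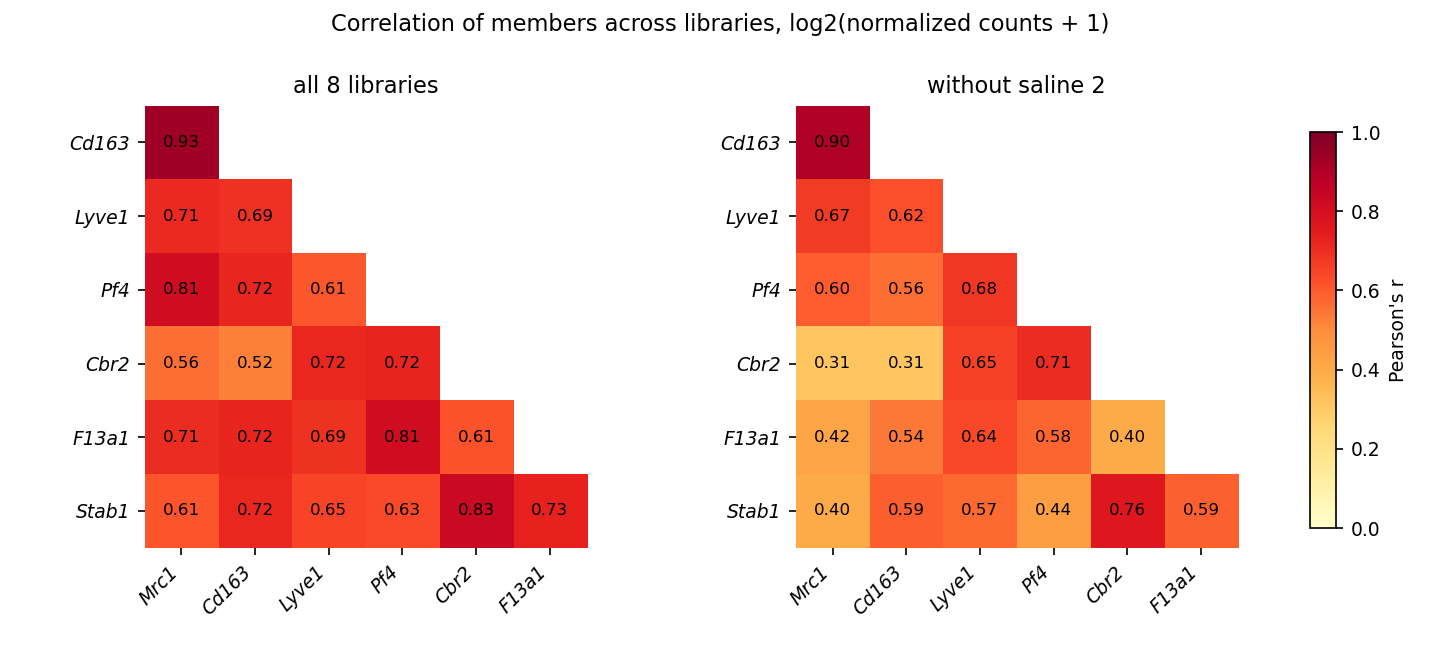
Pearson correlations of log2 normalized counts plus 1 between the 7 transcripts, over all 8 libraries (left) and over the 7 libraries without saline 2 (right), with colour from 0 to 1. Mrc1 and Cd163 have the highest value in both panels (0.93 and 0.90), and all values are positive.

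The sequences upstream of the start sites are shown for Mrc1 and Cd163, the pair with the highest Pearson correlation, and for Stab1, the abundant member. Whether these sequences bear on the shared variation was not tested. They are the 250 bases before the RefSeq start site (build GRCm38.p6, whereas the deposited values were made with GRCm39), read 5′ to 3′ on the strand of the gene. Capitals mark matches on either strand to GAGGAA, the core of sites for PU.1-type ETS factors (TTCCTC when read from the other strand), or to TGCTGA, a MAF half-site. The windows are chr2:14229164-14229413 on the plus strand for Mrc1, chr6:124304401-124304650 on the plus strand for Cd163, and chr14:31168642-31168891 on the minus strand for Stab1.
Mrc1: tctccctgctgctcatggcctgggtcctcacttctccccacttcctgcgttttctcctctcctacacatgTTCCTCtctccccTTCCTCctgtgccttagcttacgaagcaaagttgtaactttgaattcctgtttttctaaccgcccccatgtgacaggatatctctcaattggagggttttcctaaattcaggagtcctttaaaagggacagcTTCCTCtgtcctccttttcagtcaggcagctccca
Cd163: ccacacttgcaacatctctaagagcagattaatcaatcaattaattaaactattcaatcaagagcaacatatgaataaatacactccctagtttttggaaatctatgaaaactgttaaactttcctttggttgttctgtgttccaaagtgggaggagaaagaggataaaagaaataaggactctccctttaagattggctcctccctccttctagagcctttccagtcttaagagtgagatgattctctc
Stab1: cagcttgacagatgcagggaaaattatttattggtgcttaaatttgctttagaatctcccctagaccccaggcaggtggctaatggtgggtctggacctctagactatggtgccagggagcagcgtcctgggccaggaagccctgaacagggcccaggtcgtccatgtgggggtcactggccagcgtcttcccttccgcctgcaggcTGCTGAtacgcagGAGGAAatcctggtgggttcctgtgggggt

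The RefSeq table held 7 such windows for 6 of the members, with 2 for F13a1. GAGGAA was found in 5 of the 7 windows and in 23.3% of 32851 mouse promoter windows of the same length. Mrc1 had 3 matches, beginning 180, 167 and 35 bases before the start site, and Stab1, Pf4, Cbr2 and 1 of the F13a1 windows had 1 each. Cd163 had none in this window. TGCTGA was found for Stab1 alone among the members, and in 16.1% of all windows. TGANTCA, the AP-1 motif, and the STAT motif, TTC and GAA with 4 bases of any kind between them, were found in 0 of the 7 windows, and in 6.75% and 5.85% of all windows. In the Stab1 window the TGCTGA and GAGGAA matches lie close together without overlapping.

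Other genes used as border macrophage markers followed the members in part. Of a list of 24 such genes 21 were tested, and 0 passed the limma adjustment (0% of all genes tested passed). In fold change 3 were positive and 18 negative, while 51.2% of all genes tested were negative. The median on the log2 scale was -0.10 against -0.01 for all genes tested. Since these genes followed the members in part, their directions are not independent of each other. Slc40a1, the iron exporter ferroportin, averaged 9614 ± 638 normalized counts in ethanol libraries and 9684 ± 502 in saline libraries (SD, n = 4 each). The transcription factor gene Maf averaged 7789 ± 840 in ethanol libraries and 8671 ± 579 in saline libraries, and Gas6, a bridging ligand for engulfment receptors, 2695 ± 201 in ethanol libraries and 2801 ± 119 in saline libraries. These 3 had the highest normalized counts of the list, and per kilobase of exon they averaged 1072 for Slc40a1, 999 for Maf and 1078 for Gas6, near the 844 of Stab1. The only gene of the list with an unadjusted limma p under 0.05 was Colec12, a scavenger receptor of the collectin family (limma adjusted p = 0.997). Of all genes tested 3.63% had an unadjusted p under 0.05, and Colec12 is named because of its value. It had 10.9, 20.1, 0 and 0 normalized counts in ethanol 1 to 4, against 24.0, 50.2, 25.5 and 17.3 in saline 1 to 4.

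Saline 2 was the highest library for 13 of these 21 genes, against 10.8% of all genes tested. The correlation with the mean standardised profile of the 7 members had a median of 0.59 over the 21 genes, and of 0.01 over all genes tested. It was above 0.7 for 6 of the 21 and for 3.38% of all genes tested. These 6, which are named because of their values, were Dab2 (r = 0.92), an endocytic adaptor gene, Tgfbi (0.89), the lectin genes Cd209f (0.88), Clec10a (0.86), Clec4n (0.81) and Cd209g (0.72). Cd209f had 41.3, 137, 26.1 and 29.8 normalized counts in ethanol 1 to 4, against 63.8, 220, 3.06 and 35.4 in saline 1 to 4. The Cd209 genes are close relatives, and so are Clec10a and Mgl2, so reads may be split between them. Ccr1, a chemokine receptor gene, ran the other way (r = -0.72).

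The 10 genes most like the member profile, among 9910 named genes with a mean of at least 50, were Mib2, Oxsr1, Ppp1r3d, Rgl2, Rnf10, Akap10, Ybx3, Dab2, Wdr5 and Fastk, with r from 0.92 to 0.97 over the 8 libraries. Of these 10, Dab2 is on the border macrophage list.

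MHC class II genes are used as markers of the other border macrophage subset, but which cells made them in these libraries was not tested. The correlation of the 7 genes with the member profile ran from -0.80 for H2-DMb1 and -0.56 for H2-DMa, which encode the peptide-loading chaperone, to 0.24 for Ciita, the class II transactivator gene, with a median of -0.14. Saline 2 was the highest library for 0 of the 7. They summed to 7658, 8430, 12233 and 13305 normalized counts in ethanol 1 to 4, against 9541, 11270, 12040 and 10263 in saline 1 to 4. Ethanol 1 and 2 were the lowest and ethanol 3 and 4 the highest of the 8. Of the 7, 0 passed the limma adjustment (0% of all genes tested passed), and 1 had a positive and 6 a negative fold change, against 51.2% negative among all genes tested. Cd74, the invariant chain gene, had 2612 ± 1366 normalized counts in ethanol libraries and 2668 ± 575 in saline libraries (SD, n = 4 each).

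Markers of other cells that could supply these transcripts were measured in the same libraries. Of 9 platelet genes, Ppbp and Gp1bb were at 0 in every library, and whether their reads were assigned elsewhere was not tested. Of the others Itgb3 and Gp9 had the highest levels, and the 9 summed to 2070 to 2659 normalized counts in ethanol libraries and 2342 to 2765 in saline libraries. The highest of these sums, 2765, was that of saline 2. Itgb3 was also highest in saline 2 (2475 normalized counts), whereas Gp9 was lowest there (247). Of 12 endothelial and lymphatic genes, Flt4 and Ly6c1 were at 0 in every library and Cldn5 reached 1.02 at most, while Pecam1, Prox1 and Kdr averaged 449, 324 and 149 normalized counts over the 8 libraries. The correlation with the member profile was 0.73 for Cdh5, the cadherin gene of endothelial junctions, which averaged 15.3 normalized counts, and 0.55 for Vwf, -0.06 for Kdr, -0.29 for Prox1 and -0.69 for Pecam1. The 12 summed to 904 to 1214 in ethanol libraries and 882 to 1014 in saline libraries. Of 10 fibroblast and mural genes, Col1a1, Col3a1, Lum and Rgs5 were at 0 in every library. Pdgfrb, a pericyte receptor gene and the only one of the 10 that was tested, had 0, 9.02, 5.01 and 4.12 normalized counts in ethanol 1 to 4, against 19.4, 21.2, 18.3 and 19.1 in saline 1 to 4. Its groups did not overlap, as was the case for 2.32% of all genes tested. Pdgfrb did not pass the limma adjustment (adjusted p = 0.997). Its unadjusted limma p was 0.0103, and 3.63% of all genes tested had one under 0.05. The 10 summed to 7.20 to 36.1 in ethanol libraries and 30.6 to 48.3 in saline libraries.

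Monocyte and neutrophil genes were present but ordered the libraries differently. The 9 monocyte genes summed to 390.0 to 1061 normalized counts in ethanol libraries and 410 to 1341 in saline libraries. Ly6c1 was at 0 in every library and Ly6c2 averaged 39.6, and whether reads of Ly6c1 were assigned elsewhere was not tested. Among the 7 tested, r with the member profile ran from -0.80 for Ace to 0.34 for Chil3, with a median of -0.37. One of the 7, Fn1, had an unadjusted limma p under 0.05 (adjusted p = 0.997), as did 3.63% of all genes tested. The 10 neutrophil genes summed to 2534 to 10489 in ethanol libraries and 2656 to 14396 in saline libraries. Both sums were highest in saline 1 and only 520.1 and 2971 in saline 2, the third lowest of the 8. The 8 dendritic cell genes summed to 2377 to 2738 in ethanol libraries and 2186 to 2586 in saline libraries, with Ccr7 at 0 throughout. Siglece made up most of this sum, with an average of 1911 normalized counts over the 8 libraries, and Batf3 averaged 347. Xcr1 and Clec9a, named for their low values, averaged 2.05 and 1.33. Whether cells of any of these types supplied part of the members' transcripts was not tested.

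**Figure D4:**
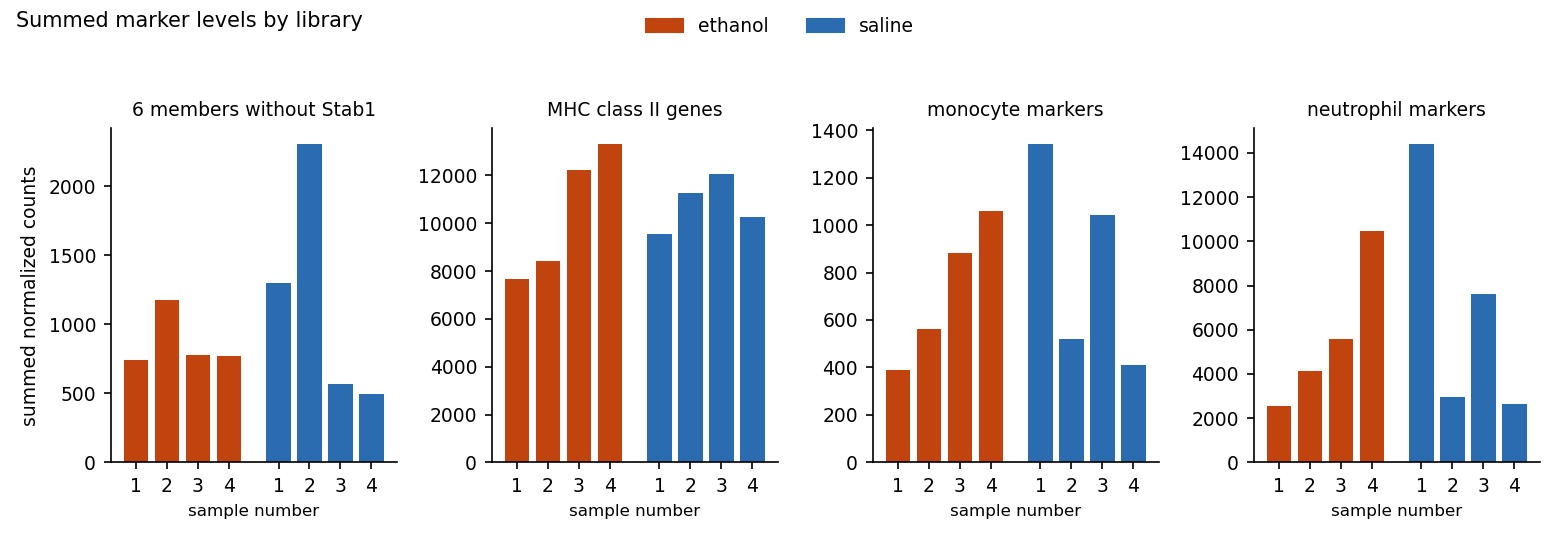
Summed normalized counts per library for the 6 border macrophage transcripts without Stab1, the 7 MHC class II genes, 9 monocyte genes and 10 neutrophil genes, with ethanol libraries (orange) left of saline libraries (blue) and axes starting at 0. The first panel is highest in saline 2 (2304), whereas the monocyte and neutrophil panels are highest in saline 1.

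Genes that work with the members showed no called difference, in lists that hold the members themselves. Of all genes tested 51.2% had a negative fold change. In the list of scavenger and mannose receptors 10 of 15 genes were tested, 2 with positive and 8 with negative fold changes and a median log2 fold change of -0.09. The lysosomal receptor gene Scarb2 averaged 968 normalized counts per kilobase over the 8 libraries and the lipoprotein receptor gene Scarb1 147, with Stab1 between them. Among genes of hyaluronan binding and turnover 7 of 12 were tested (3 positive, 4 negative), and the hyaluronidase genes Hyal2 and Hyal1 averaged 126 and 56.6 per kilobase. All 5 carbonyl reductase genes were tested (3 positive, 2 negative), and Dcxr, Cbr1 and Cbr4 averaged 532, 199 and 44.4 per kilobase beside the 41.4 of Cbr2.

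Of 9 transglutaminase and coagulation factor genes 5 were tested (2 positive, 3 negative), led by Tgm2, tissue transglutaminase, at 235 normalized counts per kilobase. F13b, the carrier subunit of factor XIII, was at 0 in every library. Of 10 genes of CXC chemokines and the Pf4 receptor Cxcr3, 4 were tested (2 positive, 2 negative), and Cxcl16, a membrane-bound chemokine gene, averaged 229 per kilobase. All 9 genes of haemoglobin uptake and heme breakdown were tested (3 positive, 6 negative), and the ferritin genes Fth1 and Ftl1 averaged 3842 and 4069 per kilobase. In each of these lists 0 genes passed the limma adjustment, and of all genes tested 0% passed. One gene, Colec12 in the scavenger list, had an unadjusted limma p under 0.05, as did 3.63% of all genes tested.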

How the data were processed

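The deposited table held DESeq2-normalized counts, a signal that the authors made by dividing gene counts by size factors. The submitters' processing notes name STAR 2.7.9a, featureCounts 2.0.1 (Subread), Salmon 1.5.2, bcl2fastq 2.19.1, R 4.2.2 and DESeq2, and the build GRCm39. The sources used here give neither the order of steps nor the annotation. Per the labels, libraries were made from 500 pg of total RNA by template switching and tagmentation, which does not mark strand, and sequenced as pairs. All values above 0 were whole multiples of the worth of 1 read (within 1e-06, 100% of values), which gave the assigned reads, 14271351 to 17231301 per library.

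Genes with a mean of at least 10 (14428 of 26812 above 0) were tested with limma 3.58.1 in R 4.3.3 on log2(value + 1), two-sided, ethanol minus saline, with Benjamini-Hochberg adjustment over all genes and a threshold of 0.05. On recovered reads edgeR 4.0.16 and DESeq2 1.42.0 were alternatives. The limma script was tested on simulated data. Correlations over the 8 libraries were tested over all pairings, two-sided, with numpy 2.4.6, and scipy 1.17.1 gave the ranks for Spearman's rho. Intervals on reads cover counting error only. Lengths came from GENCODE M21 and promoters from RefSeq, both GRCm38, with no coordinates converted. The members and lists were chosen with earlier results of these data known. All 7 members are named, with up to 3 genes of the highest mean per list, any gene past the threshold, and the 10 genes most like the members' mean standardised profile; others are said to be named for their values. Library names carry numbers whose meaning the labels do not give. The number is 165 for ethanol 1, ethanol 2 and saline 2, and 163 for ethanol 3 and saline 3. It is 164 for ethanol 4, saline 1 and saline 4. Some marker genes are not reported here.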

Additional observations from a re-analysis of the deposited data

Results flagged for a closer look

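The sum of the 6 members without Stab1 had 1 ethanol library apart from the others. Ethanol 2 had 1177 normalized counts, against 741, 778 and 773 in ethanol 1, 3 and 4. The gap from ethanol 2 to the nearest of the others was 0.914 of the group's range, above Dixon's limit for 4 samples, and chance flags about 1 in 20 groups. The limit was applied in each group to every member and to the sums with and without Stab1, and this was the only flag. Without Stab1 the group means were 867 ± 207 in ethanol libraries and 1166 ± 841 in saline libraries (SD, n = 4 each), and 787 ± 444 in saline libraries without saline 2.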

How the results depend on the processing

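No member was called under any alternative run. In 34 cases the setting, a filter, a threshold or a balanced term, cannot move the fold change, and of the 112 others 88 kept their direction and 24 reversed. Within samples 3 and 4 the log2 fold change reversed for Mrc1 (0.52), Cd163 (0.60), Pf4 (0.27), F13a1 (0.28) and Stab1 (-0.0034), and within samples 1 and 2 for Lyve1 (-0.65) and Cbr2 (-0.33). For Cbr2 it was -0.24 in edgeR, -0.24 in DESeq2 and -0.045 with library-name numbers as covariate, a setting that put Stab1 at -0.038. Others moved without reversing in edgeR, DESeq2 and with that covariate, to -0.25, -0.26 and -0.21 for Mrc1, -0.72, -0.73 and -0.61 for Cd163, -0.85, -0.85 and -0.70 for Pf4, -0.54, -0.55 and -0.65 for F13a1, and 0.14, 0.14 and 1.69 for Lyve1. Leaving out 1 library gave ranges from -0.37 to 0.20 for Mrc1, -0.94 to 0.38 for Cd163, 1.18 to 3.48 for Lyve1, -0.83 to 0.019 for Pf4, -0.58 to 0.84 for Cbr2, -0.74 to 0.045 for F13a1 and -0.051 to 0.063 for Stab1. Lyve1 was 2.71 with a pseudocount of 0.5 and 1.18 with 5, and had no value at a minimum mean of 50. The difference in the summed share of the 7 ran from -0.00486 to 0.00308 percentage points. Pairs past the adjusted exact permutation threshold numbered 2 with a pseudocount of 5, 19 without the log and 0 to 6 with 1 library left out. The median r was 0.85 without the log, 0.44 as deviations from the means of samples 1 and 2 and of samples 3 and 4, and 0.59 to 0.75 with 1 library left out. The cause of these changes was not tested. Deviations from the group means correlated weakly between ethanol and saline libraries of the same sample number (0.0138 to 0.0796). For all ethanol and saline pairs within samples 1 and 2 or within samples 3 and 4, these correlations were 0.0138 to 0.137. For pairs across the 2 sets they were -0.105 to -0.0231. With the sample number as a block 0 members and 0 genes were called. Then 645 genes had an unadjusted limma p under 0.05, against 524 without the block. At these depths Lyve1 and Cbr2 rest on few reads, and with 4 libraries a group the intervals hold 2-fold changes for 5 of the 7 members (Cd163, Lyve1, Pf4, Cbr2 and F13a1).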
